A study of Mus musculus with 6 samples.

Results

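The Ms4a genes described here are 6 mouse genes of the membrane-spanning 4-domain family, subfamily A: Ms4a4b, Ms4a4c, Ms4a4d, Ms4a6b, Ms4a6c and Ms4a6d. They were taken as every probe whose platform symbol is one of these names, 9 of 16281 probes and 6 of 10698 named genes, and they were chosen by their high ratios in this same comparison. Their treated-over-untreated ratios are therefore a description with no test. The data are 6 two-colour microarrays of RAW 264.7, an established macrophage cell line from mouse. Each array set total RNA of cells cultured for 48 h with lipopolysaccharide (LPS, 100 ng/ml, a cell wall component of Gram-negative bacteria) and LPS-binding protein (LBP, 100 pM, which delivers LPS to its receptor) against total RNA of cells cultured for 48 h untreated. Treated RNA was in the red dye Cy5 on 3 arrays and in the green dye Cy3 on 3 arrays, with sets 1, 2 and 3 in each orientation (called treated-in-red and treated-in-green below). The labels name no genetic change in either group, and both were cultured cells of the same line.

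Ms4a genes encode small proteins that cross the membrane several times, with both ends inside the cell. The family is known for CD20 (Ms4a1) on B cells and for the beta chain of the high-affinity IgE receptor (Ms4a2) on mast cells, and other members are found in macrophages, microglia and T cells, where several associate with immune receptors and tune their signals. In the mouse the Ms4a4 and Ms4a6 subgroups each hold several close paralogs that lie side by side in 1 gene cluster.

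After 48 h with LPS and LBP all 6 genes, averaged over their probes with values on every array, were higher in treated cells on each of the 6 arrays. That average leaves out probe 2654 of Ms4a6d, described below, which read on both sides of 0. Mean log2 ratios ran from 1.22 ± 0.19 for Ms4a6b to 3.19 ± 0.42 for Ms4a4c (SD of 3 set means), which is 2.34-fold to 9.10-fold, and the median of the 6 was 2.58 against -0.01 over all 9160 genes with a value on every array. A log ratio shows the difference between the RNA pools of a hybridisation and gives no level, so how abundant each transcript was, and whether more cells or more RNA per cell carried it, cannot be told apart. In RefSeq gene order the 6 genes are neighbours: they make up 6 of the 7 protein-coding genes from Ms4a4c to Ms4a6d on chromosome 19. The measured Ms4a genes on either side of them, Ms4a7 and Ms4a2, averaged 0.16 ± 0.26 and -0.02 ± 0.14.

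The stretches of genome before the start sites are shown because the members moved together and because the paralogs share sequence there. RefSeq promoters (GRCm38.p6) were used for 5 of the 6 genes, all but Ms4a6d. The last 250 bases before the annotated start of each are printed 5′ to 3′, and capitals mark GGAAGT or its reverse complement ACTTCC, the core bound by ETS factors such as PU.1, the lineage factor of macrophages.
Ms4a4c (chr19:11407411-11407660, + strand): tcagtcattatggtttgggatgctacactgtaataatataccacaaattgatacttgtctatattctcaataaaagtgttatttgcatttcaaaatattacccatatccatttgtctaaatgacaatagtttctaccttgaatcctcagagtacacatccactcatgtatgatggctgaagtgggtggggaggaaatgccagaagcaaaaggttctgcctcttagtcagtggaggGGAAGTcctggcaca
Ms4a4b (chr19:11443308-11443557, + strand): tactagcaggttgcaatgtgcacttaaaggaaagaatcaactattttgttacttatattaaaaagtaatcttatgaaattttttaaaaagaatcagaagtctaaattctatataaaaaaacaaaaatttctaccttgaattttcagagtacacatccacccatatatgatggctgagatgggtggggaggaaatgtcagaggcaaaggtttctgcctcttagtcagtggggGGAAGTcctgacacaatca
Ms4a6c (chr19:11469118-11469367, + strand): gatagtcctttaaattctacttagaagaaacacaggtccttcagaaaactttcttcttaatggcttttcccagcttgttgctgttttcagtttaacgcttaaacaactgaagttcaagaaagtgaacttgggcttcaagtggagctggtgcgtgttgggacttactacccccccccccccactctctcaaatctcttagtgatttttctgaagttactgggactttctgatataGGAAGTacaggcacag
Ms4a6b (chr19:11518309-11518558, + strand): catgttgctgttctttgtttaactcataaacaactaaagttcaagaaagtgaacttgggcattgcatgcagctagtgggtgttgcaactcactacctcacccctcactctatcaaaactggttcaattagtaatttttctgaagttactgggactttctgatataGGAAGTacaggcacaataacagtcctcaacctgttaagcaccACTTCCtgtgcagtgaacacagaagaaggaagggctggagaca
Ms4a4d (chr19:11536544-11536793, + strand): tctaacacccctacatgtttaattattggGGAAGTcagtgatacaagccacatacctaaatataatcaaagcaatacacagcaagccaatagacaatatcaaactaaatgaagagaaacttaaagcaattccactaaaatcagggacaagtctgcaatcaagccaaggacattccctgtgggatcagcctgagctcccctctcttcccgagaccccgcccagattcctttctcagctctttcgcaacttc

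GGAAGT, searched on both strands, was present in all 5 of these windows and in 4 of 13 other Ms4a genes with a promoter in the table (Ms4a3, Ms4a7, Ms4a12 and Ms4a19). It was in 19.7% of all 32851 promoter windows of the same length. The 5 windows are not separate observations. In Ms4a6c and Ms4a6b the forward match lies inside a run of 48 bases that both share. In Ms4a4c and Ms4a4b it comes shortly after a shared run of 20 bases. The count among the members can therefore not be weighed against the other shares. In Ms4a4c, Ms4a4b and Ms4a6c it began 15, 19 and 16 bases before the annotated start. In Ms4a6b it began 85 bases before the start, with a match on the other strand from base 43 to base 38, and in Ms4a4d it began 221 bases before. None of the 5 windows held GAAANNGAAA (the core of the interferon-stimulated response element, in 2.98% of all windows), GGAANNGAAA (an ETS-IRF composite, 2.30%), TTCNNNGAA (the gamma activated site of STAT factors, 7.02%) or the NF-kB consensus (3.90%). With no match of these patterns in the 5 windows, an overlap with GGAAGT could not arise, so nothing is read from its absence. All patterns were searched as exact letter matches in a short window, so sites that differ from a pattern by a base were not counted. Such a site is ggGGAAGTcc in Ms4a4c and Ms4a4b, around the marked core, which is a base away from the NF-kB consensus. The matches say nothing of which factor was bound.

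Paralogs shared runs of identical bases in these windows, shown because they link the genes by sequence independently of their ratios.
Ms4a6c and Ms4a6b, 48 bases: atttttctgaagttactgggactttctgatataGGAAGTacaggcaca
Ms4a4c and Ms4a4b, 20 bases: ttctgcctcttagtcagtgg

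Between different genes, the 19 windows of 18 Ms4a genes (Ms4a7 has 2) make 170 pairs, and the longest run in any other pair was 12 bases, and the median was 8. The 48-base run lay 49 to 2 bases before the start in Ms4a6c and 118 to 71 bases before it in Ms4a6b, so the annotated starts are not at the same place relative to the shared sequence. Ms4a6c and Ms4a6b, the pair with the longer shared run, differed in their ratios by 1.63 ± 0.25 on the log2 scale, and Ms4a4c and Ms4a4b by 1.21 ± 0.31 (mean ± SD over 3 sets).

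Within the Ms4a4 subgroup, Ms4a4c had the highest ratios. On the treated-in-red arrays its log2 ratios were 2.84, 3.76 and 3.67 in sets 1, 2 and 3, and on the treated-in-green arrays they were 2.56, 3.16 and 3.13. Every array was far above 0, and set 1 was the lowest in both orientations. The mean was 3.19 ± 0.42, a 9.10-fold difference, and ranked 22 of 9160 genes.

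Ms4a4b, which was described in T cells as an associate of the costimulatory receptor GITR (Tnfrsf18), had lower ratios and a wider spread. Averaged over its 2 probes, it read 1.30, 1.78 and 2.63 on the treated-in-red arrays and 1.59, 2.15 and 2.41 on the treated-in-green arrays, in the order of the sets. Set 1 was lowest and set 3 highest in each orientation, and the mean was 1.98 ± 0.54 (3.94-fold, rank 88). Its probes differed in size. Probe 13771 read 1.56, 2.27 and 2.87 in red and 2.01, 2.13 and 3.18 in green, and probe 5256 read 1.05, 1.30 and 2.39 in red and 1.16, 2.18 and 1.64 in green. The first was above the second in all 3 sets, by 0.71 ± 0.27, so part of any difference in size between Ms4a genes can belong to the probe.

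Ms4a4d, the remaining Ms4a4 gene on the array, read 1.74, 1.94 and 2.84 treated-in-red and 1.83, 2.83 and 2.63 treated-in-green. Both arrays of set 1 were at the low end and the mean was 2.30 ± 0.48 (4.93-fold, rank 61). It stayed above Ms4a4b in each set, by 0.32 ± 0.10.

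Within the Ms4a6 subgroup, Ms4a6c read 2.65, 3.61 and 2.85 treated-in-red and 2.27, 3.05 and 2.71 treated-in-green. Set 2 was highest in both orientations, and the mean was 2.86 ± 0.44 (7.24-fold, rank 34).

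Ms4a6b, also studied in T cells, had the smallest ratios of the 6 genes. It read 1.20, 1.44 and 1.38 treated-in-red and 0.93, 1.44 and 0.95 treated-in-green, for a mean of 1.22 ± 0.19 (2.34-fold, rank 204). Its highest array, at 1.44, was below the lowest arrays of Ms4a4c (2.56), Ms4a6c (2.27), Ms4a6d (2.52) and Ms4a4d (1.74), and above the lowest array of Ms4a4b (1.30).

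Ms4a6d, a macrophage-expressed member, was represented by 3 probes. Averaged over the 2 probes with values on all arrays, it read 2.87, 3.44 and 2.78 treated-in-red and 2.60, 3.18 and 2.52 treated-in-green. The mean was 2.90 ± 0.36 (7.45-fold, rank 33), with set 2 highest in both orientations. Probes 1241 and 4502 averaged 2.91 ± 0.39 and 2.89 ± 0.33, a difference of 0.02 ± 0.10. Probe 2654, which the platform assigns to the same gene symbol as probes 1241 and 4502, did not show these high ratios. It was listed at exactly 0 on 3 arrays and read 0.48, -0.17 and -0.25 on the other 3, with both signs among them. With zeros kept as values, that probe enters the average and the mean of Ms4a6d drops to 1.93. Probe sequences were not used here, so which of the 3 reports the transcript, and how far the probes of close paralogs read each other's RNA, was not tested.

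**Figure D1:**
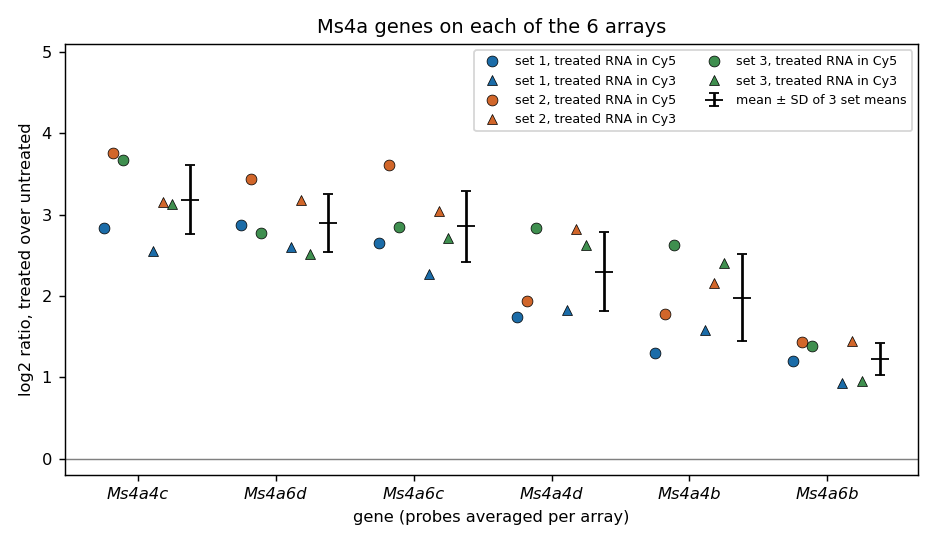
Log2 ratio of treated over untreated cells on the y axis for each of the 6 Ms4a genes, with 1 point per array (circles for treated RNA in Cy5, triangles for treated RNA in Cy3, colours for the sets) and a bar for the mean ± SD of the 3 set means. Points average the probes with values on all 6 arrays, which leaves out probe 2654 of Ms4a6d. All 36 points lie above 0, from 0.93 for Ms4a6b to 3.76 for Ms4a4c.

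**Figure D2:**
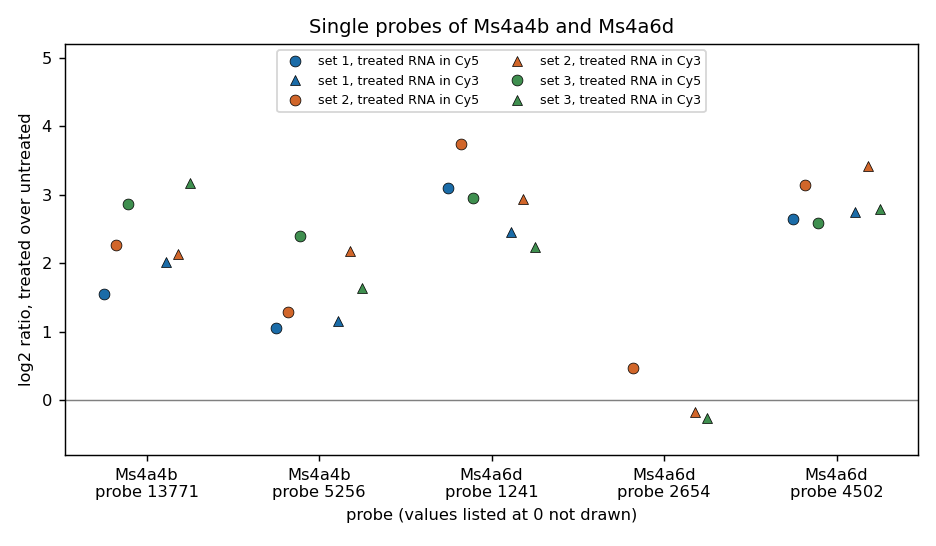
Log2 ratio of treated over untreated cells on the y axis for each probe of Ms4a4b and Ms4a6d, with 1 point per array and the same symbols. Probe 2654 of Ms4a6d has 3 points, from -0.25 to 0.48, whereas probes 1241 and 4502 lie between 2.24 and 3.74.

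Ordered by mean ratio, the genes ran Ms4a4c, Ms4a6d, Ms4a6c, Ms4a4d, Ms4a4b and Ms4a6b. Ms4a4c exceeded Ms4a6d by 0.29 ± 0.41 and Ms4a6d exceeded Ms4a6c by 0.04 ± 0.21, both within the SD over sets, and the sign of each turned in at least 1 set, while Ms4a4c was above Ms4a6c in every set, by 0.33 ± 0.26. Ms4a6c was above Ms4a4d by 0.56 ± 0.46, but by only 0.04 in set 3. Ms4a4b was above Ms4a6b by 0.75 ± 0.52, from 0.38 in set 1 to 1.35 in set 3. Ms4a6b lay below all others in every set.

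The sets did not rank alike for all members. Set 2 gave the highest mean for Ms4a4c, Ms4a6b, Ms4a6c and Ms4a6d, and set 3 for Ms4a4b and Ms4a4d. Set 1 was the lowest for 5 of the 6 genes, and for Ms4a6d set 3 was, at 2.65 against 2.74 in set 1. Among the 270 genes with a mean log2 ratio of 1 or more, 50.4% were lowest in set 1, 46.7% were highest in set 3 and 30.7% were highest in set 2. The SD of the set means was 0.19 to 0.54 for the Ms4a genes, with a median of 0.22 over those 270 genes.

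In limma's fit across 9160 genes, all 6 members were called higher in treated cells, and 15.0% of all genes were called higher and 12.8% lower. A mean of 1 or more was seen in 6 of 6 members and in 2.95% of all genes, and a mean of 2 or more in 4 of 6 and in 0.928%. All 6 were above 0 on every array, as were 16.4% of all genes. Since this comparison chose the members, nothing is read from these counts.

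Whether a member's ratio depends on the dye is a question the choice of genes did not use. The dye component, the mean log2 ratio of Cy5 over Cy3 once the treatment cancels, was between -0.13 and 0.24 for the 6 genes. It passed in 0 of 6 (limma, adjusted p from 0.107 to 0.562), against 0.142% of all genes called for dye. An unadjusted p under 0.05 for dye was seen in 3 of the 6 and in 2338 of all 9160 genes (limma). The largest was that of Ms4a4c, at 0.24 ± 0.09 (limma, adjusted p = 0.107), with higher ratios in Cy5 than in Cy3 in 3 of 3 sets. The 2 probes of Ms4a6d went opposite ways. Probe 1241 read higher on the treated-in-red arrays by 0.64, 0.80 and 0.71 in sets 1, 2 and 3, whereas probe 4502 read lower by 0.11, 0.28 and 0.20, and neither passed for dye (limma over single probes, adjusted p = 0.0977 and 0.262). Averaging the orientations of a set removes such a component from the treatment ratio.

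**Figure D3:**
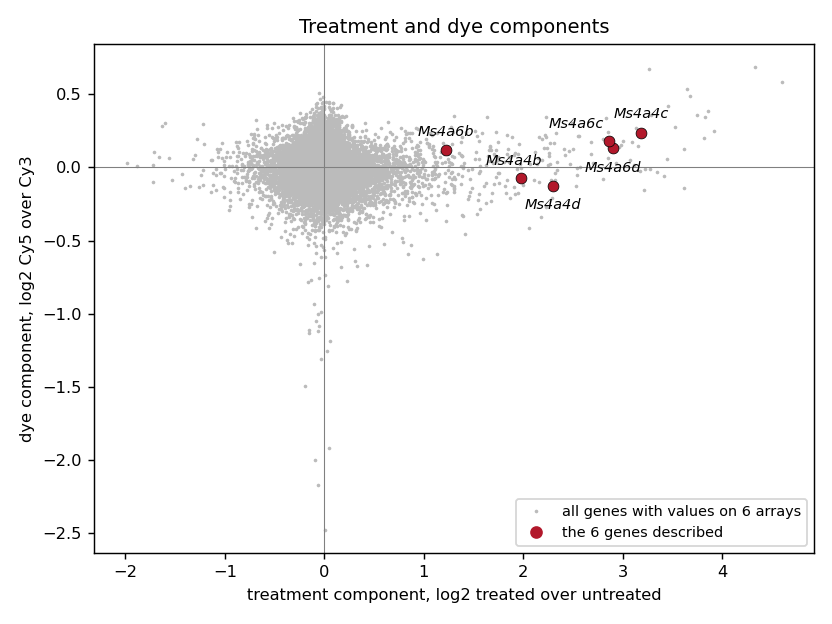
For each of 9160 genes, the treatment component (log2 treated over untreated, x axis) against the dye component (log2 Cy5 over Cy3, y axis), each a mean of 3 set means, with the 6 Ms4a genes as large named points. They lie between 1.22 and 3.19 on the x axis and between -0.13 and 0.24 on the y axis.

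The other Ms4a genes had ratios closer to 0. Of 7 other Ms4a genes on the array, 6 had values on every array. Of these, 0 passed the test in either direction (limma across 9160 genes, adjusted p at or above 0.0656), against 15.0% of all genes higher and 12.8% lower. An unadjusted p under 0.05 was seen in 2 of the 6 and in 3587 of the 9160 genes (limma). Their means ran from -0.24 to 0.16 and single arrays from -0.67 to 0.81. None of their arrays reached the lowest array of a member, with probes averaged and probe 2654 of Ms4a6d left out. The members were chosen for high ratios in this comparison, so that gap was partly set by the choice. Nothing is read from it. Ms4a7, a macrophage and microglia gene, was at 0.16 ± 0.26, and CD20 (Ms4a1) at 0.02 ± 0.24 with a further probe listed at 0 throughout. Ms4a2 stood at -0.02 ± 0.14, Ms4a10 at 0.12 ± 0.17, Ms4a20 at -0.24 ± 0.18 and Ms4a19 at -0.24 ± 0.10. Ms4a8a was listed at 0 on both arrays of set 3, and its 8 remaining probe values ran from -0.77 to 0.62. Tmem176b, of a related family, was at 0.15 ± 0.41, with both arrays of set 1 below 0 and the other 4 above.

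Along the chromosome the order of protein-coding genes from Ms4a7 on is Ms4a4a, Ms4a4c, Ms4a4b, Ms4a6c, Gm8369, Ms4a6b, Ms4a4d, Ms4a6d, Ms4a2 and Ms4a3, of which Ms4a4a, Gm8369 and Ms4a3 have no named probe here. The cluster holds 21 Ms4a genes. Beyond it, 6 of the 10 nearest protein-coding genes (5 on each side) had values, and 0 rose and 2 fell, where 15.0% of all genes rose and 12.8% fell. Those 2 were the splicing factor gene Prpf19, at -0.50 ± 0.11, and Mrpl16, a mitochondrial ribosomal protein gene, at -0.30 ± 0.04 (limma, adjusted p = 0.00386 and 0.0247, below 0 on 6 of 6 arrays each). The other 4, Zp1, Ptgdr2, Ccdc86 and Cblif, were between -0.05 and 0.16, and Tmem109, Oosp1, Oosp2 and Oosp3 have no named probe here.

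**Figure D4:**
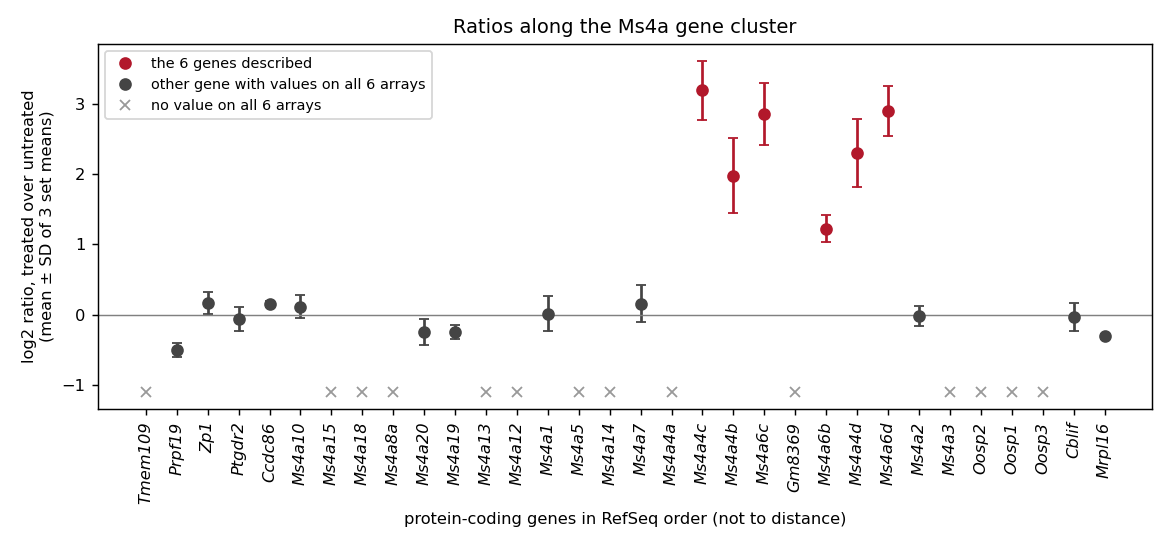
Mean log2 ratio of treated over untreated cells (points, with bars for the SD of 3 set means) for protein-coding genes in RefSeq order along the Ms4a cluster, drawn at equal spacing, with crosses for genes without a value on all 6 arrays. The 6 genes from Ms4a4c to Ms4a6d lie between 1.22 and 3.19, and the measured genes on either side between -0.50 and 0.16.

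Genes with the most similar ratios were sought by the root mean square difference over the 6 arrays, on the log2 scale. Ms4a6c and Ms4a6d were among each other's closest 3 of 9160 genes (0.20), together with Saa3, an acute-phase serum amyloid gene (0.19 from Ms4a6c and 0.27 from Ms4a6d). Next came Oasl2, an OAS-family interferon-induced gene (0.31 from Ms4a6c), and Slfn1, a Schlafen gene (0.31 from Ms4a6d). Closest to Ms4a4c were Slfn3, another Schlafen gene (0.15), the membrane mucin gene Pdpn (0.25) and the chemokine Cxcl11 (0.33). Closest to Ms4a4b were Mcemp1 (0.19) and the immunity-related GTPases Igtp (0.23) and Iigp1 (0.25). For Ms4a4d they were the transcription factor Klf15 (0.11), Iigp1 (0.17) and the GTPase Tgtp1 (0.31), and for Ms4a6b the guidance receptor Robo3 (0.11), the cytokine Lif (0.14) and Basp1 (0.14). The measure finds genes of like size and like deviations on the same 6 arrays, and the arrays share their RNA comparison.

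Receptors and adaptors that Ms4a proteins are known to associate with, or that share their Fc receptor adaptors, were called about as often as genes at large. Of 10 measured genes of that list 2 rose and 1 fell, against 15.0% and 12.8% of all genes, with a median of 0.06 against -0.01 over all genes. The IgG receptors Fcgr1 and Fcgr2b rose, by 1.96 ± 0.15 and 1.21 ± 0.19, and Fcgr3 fell by 1.71 ± 0.16. The partners Clec7a (dectin-1, a receptor for fungal glucans, 0.20 ± 0.16), Tnfrsf18 (GITR, 0.14 ± 0.09) and Trem2 (a lipid-sensing myeloid receptor, -0.01 ± 0.09) did not pass, nor did the adaptor Fcer1g (0.05 ± 0.09). Tyrobp, the adaptor of Trem2, was at -0.13 ± 0.14.

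Tetraspanins are another family of small proteins that cross the membrane repeatedly. Of 14 measured, 4 rose and 0 fell, against 15.0% and 12.8% of all genes, with a median of 0.02 (-0.01 over all genes) and a highest value of 0.64 ± 0.20 (Tspan17). Tspan3 rose by 0.64 ± 0.07, and the lowest were Cd81 (-0.09 ± 0.17) and Tspan13 (-0.20 ± 0.15), which did not pass.

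Among 14 measured transcription factors that bind the motifs searched above, 8 rose and 0 fell, against 15.0% and 12.8% of all genes, with a median of 0.40 (-0.01 over all genes). Irf7, a driver of interferon responses, rose by 2.83 ± 0.18 and Stat2, part of the interferon-activated complex, by 1.57 ± 0.11. Spi1, which encodes PU.1, was at 0.03 ± 0.06 without passing (limma, adjusted p = 0.808). The lowest 2, Rela (-0.06 ± 0.15) and Irf3 (-0.11 ± 0.17), did not pass.

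Since some Ms4a genes are known from lymphocytes and mast cells, markers of those cells were read beside them, and their counts stand against 15.0% of all genes higher and 12.8% lower. Of 10 measured T cell markers 1 rose, the cytokine receptor Il7r by 0.49 ± 0.23, and the receptor chains Cd3e, Cd3d and Cd3g were at 0.05 ± 0.12, -0.01 ± 0.40 and 0.09 ± 0.17. The lowest T cell marker was Cd4, at -0.25 ± 0.16, which did not pass. Of 6 B cell markers 1 rose, Cd79a by 0.63 ± 0.11, and the other 5 ran from Blk (-0.14 ± 0.22) to Cd22 (0.21 ± 0.28). Of 5 mast cell markers 0 changed (limma, 0 at an unadjusted p under 0.05), with means from -0.06 to 0.06, and of 5 NK cell markers 1 fell, Gzma by 0.32 ± 0.13, while the highest was Klrk1 (0.08 ± 0.21). Of 8 macrophage markers 3 rose (Fcgr1, the scavenger receptor Msr1 by 1.66 ± 0.04 and Adgre1, which encodes F4/80, by 0.94 ± 0.09) and 1 fell, the growth factor receptor Csf1r by 0.53 ± 0.22. Ratios show no level, so the presence of these transcripts could not be checked. The labels name RAW 264.7 cells as the only source of RNA, and the purity of the cultures was not tested.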

How the data were processed

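The authors deposited 1 log2 ratio of Cy5 over Cy3 per probe and array, per the labels' channel descriptions. No source at hand states the logarithm's base, which was taken as 2, and with a natural logarithm every fold would be larger. How background and dyes were corrected and which spots were filtered is likewise not stated, and the median of each array is 0. The labels call Cy5 the test channel. Where Cy3 held the treated RNA (3 arrays), the sign was turned. Before turning, arrays of opposite orientation correlated at -0.781 to -0.560 over probes and arrays of like orientation at 0.741 to 0.812. Il1b, Il6, Tnf and Nos2 are known to be induced by LPS and were higher on 6 of 6 arrays under this reading. Exact zeros, 7.97% to 17.8% of an array's values, were treated as missing.

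Probes with 1 symbol in the platform annotation (13738 of 16281, 52 with several and 2491 with none) and values on all arrays were averaged per gene, which gave 9160 genes. The orientations of a set were averaged, and limma 3.58.1 in R 4.3.3 (lmFit with an intercept, eBayes, two-sided, Benjamini-Hochberg) tested 3 set means, of turned ratios for treatment and of unturned ratios for dye, with adjusted p under 0.05 as passing. The number of arrays limits the precision. The labels do not say that sets are separate cultures, so p-values measure the spread between these sets, which may be technical. The procedure was tested on simulated data. All per-sample columns were mapped. The members and lists were chosen with earlier results of these data known. The text names the members, all other Ms4a genes and Tmem176b, the 3 most similar genes of each member, 5 neighbours on each side of the cluster and the 2 highest and 2 lowest of the partner, tetraspanin and factor lists. Clec7a, Tnfrsf18, Trem2, Fcer1g, Spi1 and the cell type markers named were picked from their lists after their values were seen. Alternatives were zeros kept, single probes, equal spread, quantile normalization, 6 arrays with and without the set as a block, robust eBayes, 1 orientation alone and leaving out each set.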

Additional observations from a re-analysis of the deposited data

Results flagged for a closer look

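Of 20 Ms4a gene and probe profiles over the 6 arrays, 1 had an array that stood apart from the rest. Probe 4078 of Ms4a1, the gene for CD20, read 0.71 on the array of set 2 with treated RNA in Cy5 and between -0.41 and -0.01 on the other 5. The gap took up 0.639 of its whole range, above the limit of 0.625 for 6 values. About 1 in 20 such profiles is expected to pass that limit by chance, and none of the profiles of the 6 described genes did.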

How the results depend on the processing

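All 6 Ms4a genes, each averaged over its probes, were above 0 on every array under each alternative tried. Of 52 values of their mean ratio under alternatives, 51 stayed within 1 SD of the set means, and all were between 1.11 and 3.43. The exception was Ms4a6d with zeros kept (1.93), where probe 2654 enters. Part of the count within 1 SD was fixed in advance. Leaving out 1 of 3 set means cannot move their mean by 1 SD, and keeping zeros changes nothing for genes whose probes held none. Without each replicate in turn, Ms4a4c was at 3.05 to 3.43, Ms4a4b at 1.71 to 2.24, Ms4a6c at 2.62 to 3.05, Ms4a6b at 1.12 to 1.30, Ms4a4d at 2.08 to 2.56 and Ms4a6d at 2.69 to 3.02.

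Limma called 2542 genes for treatment, against 1576 with zeros kept, where more genes were tested, and 1833 to 2013 without 1 replicate. Same-numbered arrays of the 2 orientations deviated together at correlations of 0.540, 0.0823 and 0.183 in sets 1, 2 and 3. Arrays of different sets did so at -0.376 to 0.137, so set 2 was within that range and set 1 furthest above it. For 5 of 6 arrays the best correlation was with their own number, and limma's consensus correlation within sets was 0.355. That is a weak hint, resting mostly on set 1, that arrays of a set share a source, which the labels do not state. The reported fit averages the arrays of a set, so that each set counts once. With the set as a replicate block in a fit of 6 arrays limma called 2491 genes, and without it 3183. For dye the 13 calls became 0 with zeros kept (2551 genes at an unadjusted p under 0.05), 23 over single probes, 21 at equal spread, 47 over 6 arrays and 573 with the block, and 0 to 13 without 1 replicate. The cause was not tested. All 6 Ms4a genes were called for treatment, and 0 for dye, in every gene-level fit. The reported fit called 2542 of all 9160 genes for treatment and 13 for dye. Of the other Ms4a genes 0 were called in any gene-level fit. Since the treatment comparison chose the 6 genes, nothing is read from their treatment calls. No signal over background is at hand, so limits from dim spots are unknown.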
